A study of Mus musculus with 7 samples.

Results

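The genes described here are 8 components of the signalling route from prolactin and growth hormone to the transcription factor STAT5 in pancreatic islets of mouse pups. They were taken by symbol, and each of the 8 symbols matched 1 of the 49315 mouse genes in the count files. They comprise the receptors Prlr and Ghr, the kinase Jak2, the transcription factors Stat5a and Stat5b, the feedback inhibitors Cish and Socs2, and the islet target Tph1. All 8 passed the filter on low counts. Islets came from pups aged 7 days of 2 genotypes: βNrf2KO mice, in which Nrf2 is deleted in β-cells (4 libraries, pools 1, 2, 3 and 4), and Nrf2lox/lox mice, which serve as the control (3 libraries, pools 1, 2 and 4). Nrf2lox/lox is by its name a homozygous loxP-flanked allele of the Nrf2 gene. RNA of 5 animals was combined for each library, so each value is that of a pool. The p-values set the genotype difference against the spread between pools, not between animals. The labels name neither the Cre line nor its promoter.

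Prolactin, the placental lactogens and growth hormone bind class I cytokine receptors that carry the kinase JAK2. JAK2 phosphorylates STAT5, which enters the nucleus and switches on targets that include CIS and SOCS2, the products of Cish and Socs2, and these restrain the same receptors. In islets the pathway is best known from pregnancy, when lactogens drive β-cell expansion and induce Tph1, the first enzyme of serotonin synthesis outside the brain, and from the perinatal period, when loss of the prolactin receptor lowers β-cell mass. Some Cre lines built on an insulin promoter also carry a human growth hormone minigene whose product can act on the prolactin receptor and raise Cish, Socs2 and Tph1; whether this applies to these mice is not given in the sources used here.

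Total counts, mitochondrial genes included, ran from 18187382 to 20847474 in the βNrf2KO pools and from 21603654 to 25373105 in the Nrf2lox/lox pools. Every βNrf2KO pool was lower in this total. The mitochondrial genome took 10.02% to 27.7% of counts in βNrf2KO pools and 14.6% to 51.8% in Nrf2lox/lox pools. Nfe2l2, the gene of Nrf2, had 66.8, 57.8, 67.3 and 58.6 counts per mega-count of library size (CPM) in βNrf2KO pools 1, 2, 3 and 4, against 86.0, 43.2 and 48.4 CPM in Nrf2lox/lox pools 1, 2 and 4, which overlapped. Reads of Cre were present in every βNrf2KO pool, at 24, 23, 46 and 73 counts in pools 1, 2, 3 and 4, against 0 in every Nrf2lox/lox pool. Counts over the whole gene in whole islets do not check a deletion of part of it in β-cells. The summed CPM of 10 β-cell markers, led by the insulin genes, ran from 33707 to 46106 in βNrf2KO pools and from 16909 to 47781 in Nrf2lox/lox pools. The insulin genes were thus abundant in every pool, and the sum says little of the less abundant markers. Mafa, the lowest of them, was at 7.12 to 10.7 CPM in βNrf2KO pools and 12.2 to 16.9 CPM in Nrf2lox/lox pools. Of 12 lists of cell type markers, 11 had summed levels that overlapped between genotypes. The exception was the list of Schwann cell and neuron markers, at 35.2 to 48.3 CPM in βNrf2KO pools against 51.1 to 87.3 CPM in Nrf2lox/lox pools; of its 5 genes, 1 (Prph) separated the genotypes by itself and none was at 0.

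The promoter sequences bear on the pathway because STAT5 binds the core TTCNNNGAA, which reads the same on both strands. In RefSeq windows of 300 bases (250 before and 50 after an annotated transcription start, GRCm38.p6), 2726 of 32851 windows over all genes (8.30%) held this core and 150 (0.457%) held it at least 2 times. Windows were found for 7 of the 8 genes, 13 in all, and 2 of the 13 held the core. The Cish window held 2 cores, TTCCTGGAA beginning at base 1 and TTCTTGGAA beginning at base 12 of the transcript. One of 3 Prlr windows held TTCTAGGAA, beginning 110 bases before its start. The core bound by Nrf2 and its partners was searched on both strands as TGACNNNGC and TGAGNNNGC, forms that 9128 windows (27.8%) held at least once. Among the 8 genes it lay in 4 windows, of Prlr, Jak2 and Tph1. A window of Tph1 held TGACGCTGC 36 bases before the start and GCCTGGTCA, the same core on the other strand, from base 27. Windows of Cish, Prlr and Tph1 are shown 5′ to 3′ along the gene's own strand because they carry these matches, which are in capitals (STAT5 cores in Cish and Prlr, Nrf2 cores in Tph1). They lie at chr9:107296409-107296708 (Cish, plus strand), chr15:10223656-10223955 (Prlr, plus strand) and chr7:46672488-46672787 (Tph1, minus strand).
Cish: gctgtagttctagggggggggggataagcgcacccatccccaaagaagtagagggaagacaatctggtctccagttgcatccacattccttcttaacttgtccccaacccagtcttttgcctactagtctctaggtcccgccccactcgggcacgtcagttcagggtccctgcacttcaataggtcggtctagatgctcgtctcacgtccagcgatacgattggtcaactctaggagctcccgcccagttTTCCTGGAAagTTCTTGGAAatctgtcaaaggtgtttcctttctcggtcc
Prlr: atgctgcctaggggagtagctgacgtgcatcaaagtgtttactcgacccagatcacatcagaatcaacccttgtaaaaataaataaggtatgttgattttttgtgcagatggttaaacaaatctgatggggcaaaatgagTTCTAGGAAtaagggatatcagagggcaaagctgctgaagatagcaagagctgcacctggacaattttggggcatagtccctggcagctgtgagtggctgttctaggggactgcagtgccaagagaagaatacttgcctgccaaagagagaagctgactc
Tph1: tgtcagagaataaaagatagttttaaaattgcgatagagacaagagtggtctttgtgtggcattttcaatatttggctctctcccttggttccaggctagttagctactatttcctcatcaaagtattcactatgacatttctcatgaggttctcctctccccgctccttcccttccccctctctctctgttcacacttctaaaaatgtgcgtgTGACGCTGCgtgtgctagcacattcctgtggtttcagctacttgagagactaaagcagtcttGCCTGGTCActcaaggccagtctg
A match of these letters is a description of the sequence and was not linked to binding or to the counts.

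Levels were compared between genes per length, as RPKM (CPM divided by the exon length in kilobases). Averaged over the 7 pools, Ghr stood highest at 22.2 RPKM, followed by Jak2 at 14.7, Stat5b at 11.4, Prlr at 10.7, Socs2 at 5.92, Cish at 3.68, Stat5a at 3.49 and Tph1 at 0.183 RPKM. All neighbours in this order except Stat5a and Tph1 overlapped over the pools, and within pools the order of Stat5b over Prlr and of Cish over Stat5a each held in 4 of 7. Jak2 exceeded Stat5b, Socs2 exceeded Cish and Stat5a exceeded Tph1 in 7 of 7 pools. Ghr exceeded Jak2, and Prlr exceeded Socs2, in 6 of 7. The length is that of all annotated exons joined (15339 bases for Prlr and 9531 for Socs2), so genes with rarely used exons are understated. Gene counts also merge the long and short forms of the prolactin receptor, which differ in their cytoplasmic tail.

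**Figure D1:**
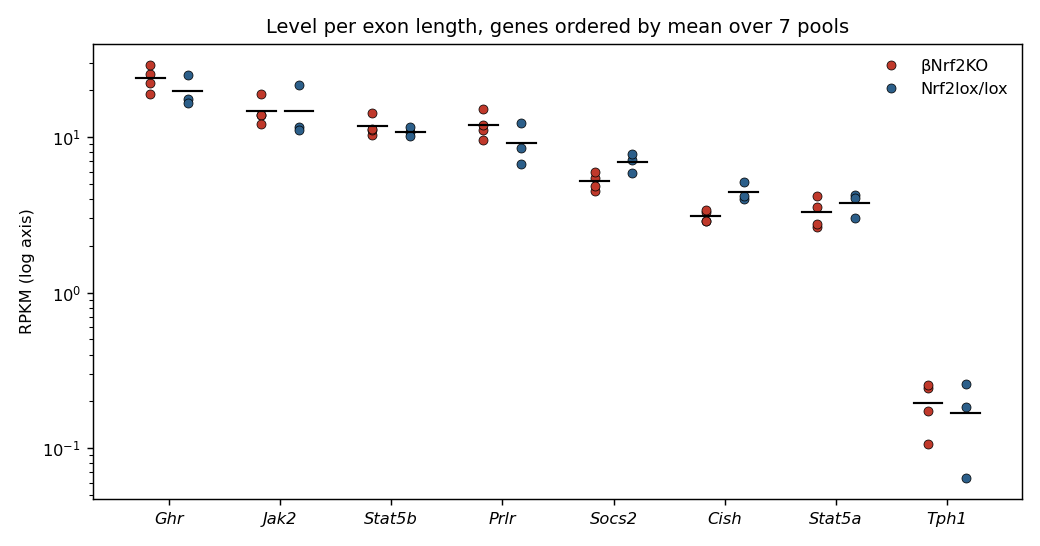
Level of the 8 genes in RPKM on a log axis, with 1 point per pool (βNrf2KO left and Nrf2lox/lox right of each pair) and a bar at the group mean. Tph1, at 0.0641 to 0.257 RPKM, lies far below the other 7 genes.

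None of the 8 genes passed the threshold between the genotypes (adjusted p under 0.05 in edgeR's quasi-likelihood F test, Benjamini-Hochberg over 19893 genes), where 0.00% of all tested genes did. The 2 feedback inhibitors had the smallest p-values and were lower in βNrf2KO pools, while the 2 receptors had higher means there. Of all tested genes 8.46% had an unadjusted p under 0.05, 5.23% lower and 3.23% higher in βNrf2KO; of the 8 genes 2 did, both lower. That number was 0 without Nrf2lox/lox pool 1, where 14.1% of all tested genes had such a p, and 4 without Nrf2lox/lox pool 4 (Prlr and Ghr added), where 3446 of 20326 did. It was 1, Cish, without Nrf2lox/lox pool 2 or βNrf2KO pool 3 or 4, where 2.30%, 3.96% and 4.22% did. In the whole table edgeR called 0 genes and had 1683 at unadjusted p under 0.05, and DESeq2 called 1. With the pool number as a replicate block edgeR called 14 genes (0.0704% of those tested), among them 0 of the 8. In this edgeR fit 2 of the 8 were lower at unadjusted p under 0.05, against 6.12% of all genes. βNrf2KO pool 3 has no control of its number, so the genotype difference under the block rests on numbers 1, 2 and 4. Over the 8 genes, 4 fold changes were positive and 4 negative, with a median log2 fold change of 0.05, against -0.01 over all tested genes. In bulk islets, fewer cells of a type and less RNA per cell cannot be told apart, and this holds for every value below.

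**Figure D2:**
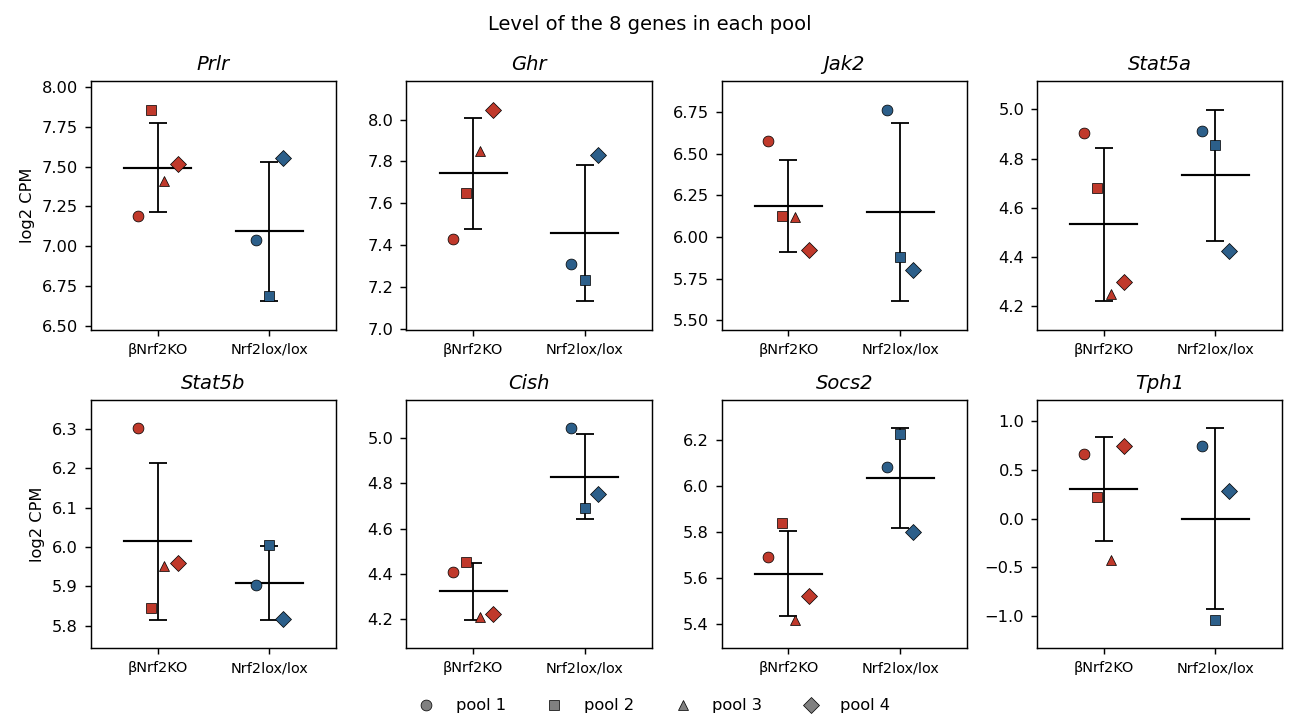
Log2 CPM of each gene in each pool, with βNrf2KO left and Nrf2lox/lox right in each panel; lines are group means and bars SD (n = 4 and n = 3), and the shape of a point gives the pool number. The genotypes separate without overlap for Cish, at 4.21 to 4.45 in βNrf2KO pools and 4.69 to 5.04 in Nrf2lox/lox pools, and overlap for the other 7 genes.

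Prlr, the receptor of prolactin and placental lactogens (ENSMUSG00000005268, chromosome 15, 10177238 to 10349180, plus strand, GRCm38), had 146, 232, 170.0 and 183 CPM in βNrf2KO pools 1, 2, 3 and 4, against 131, 103 and 188 CPM in Nrf2lox/lox pools 1, 2 and 4. The highest value was in βNrf2KO pool 2 and the lowest in Nrf2lox/lox pool 2, and Nrf2lox/lox pool 4 lay among the βNrf2KO pools. The log2 fold change was 0.38 ± 0.22 (SE, adjusted p = 0.598 by edgeR). Between pools of the same number the difference in log2 CPM was 0.15 for number 1, 1.17 for number 2 and -0.04 for number 4. Nrf2lox/lox pool 2, lowest in Prlr, also had the lowest β-cell marker sum, 16909 CPM, and the highest mitochondrial share, 51.8%; the part of either in the Prlr value was not tested. The fold change was 0.19 without that pool and 0.64 without Nrf2lox/lox pool 4.

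Ghr, the growth hormone receptor (ENSMUSG00000055737, chromosome 15, 3317760 to 3583492, minus strand), had 172, 201, 231 and 264 CPM in βNrf2KO pools 1, 2, 3 and 4. In Nrf2lox/lox pools 1, 2 and 4 it had 159, 150.3 and 228 CPM. Nrf2lox/lox pools 1 and 2 lay below every βNrf2KO pool, and pool 4 was the highest of its genotype in both. The log2 fold change was 0.28 ± 0.20 (SE, adjusted p = 0.643 by edgeR), with differences of 0.12, 0.42 and 0.21 in log2 CPM for numbers 1, 2 and 4. Without Nrf2lox/lox pool 4 the fold change was 0.49 and without Nrf2lox/lox pool 2 it was 0.16.

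Jak2, the kinase bound to both receptors (ENSMUSG00000024789, chromosome 19, 29251828 to 29313080, plus strand), had 95.2, 69.7, 69.5 and 60.7 CPM in βNrf2KO pools 1, 2, 3 and 4, against 108, 58.7 and 55.8 CPM in Nrf2lox/lox pools 1, 2 and 4. The pools numbered 1 were the highest in both genotypes. Its log2 fold change was -0.01 ± 0.25 (SE, adjusted p = 0.992 by edgeR), and the sign turned with the replicate block, with DESeq2 and in 4 of the 7 fits that left out a pool, up to 0.36 without Nrf2lox/lox pool 1.

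Stat5a and Stat5b are neighbouring genes on chromosome 11 that encode closely related STAT5 proteins. Stat5a (ENSMUSG00000004043, 100859351 to 100885169, plus strand) had 29.8, 25.5, 18.9 and 19.6 CPM in βNrf2KO pools 1, 2, 3 and 4, against 30.1, 28.9 and 21.4 CPM in Nrf2lox/lox pools 1, 2 and 4. Its log2 fold change was -0.19 ± 0.21 (SE, adjusted p = 0.755 by edgeR), and the groups overlapped. It was -0.34 without βNrf2KO pool 1, -0.33 without Nrf2lox/lox pool 4 and -0.098 without Nrf2lox/lox pool 1. Stat5b (ENSMUSG00000020919, 100780731 to 100850724, minus strand), which carries most growth hormone signalling in mouse liver, had 78.8, 57.3, 61.8 and 62.1 CPM in βNrf2KO pools and 59.8, 64.1 and 56.3 CPM in Nrf2lox/lox pools in the same order of numbers. βNrf2KO pool 1 was above all others, and the remaining 6 pools lay within 56.3 to 64.1 CPM. The log2 fold change was 0.11 ± 0.16 (SE, adjusted p = 0.810 by edgeR), and without βNrf2KO pool 1 it was -0.0064. Reads from stretches shared by both genes could be split or dropped by the authors' counting: of the windows of 50 bases along the longest transcript, 10.8% for Stat5a and 11.8% for Stat5b occur unchanged in the other gene. Stat5a also shares 72 exon bases with Stat3 on the opposite strand.

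Cish, whose product CIS binds activated receptors and blocks STAT5 docking (ENSMUSG00000032578, chromosome 9, 107296026 to 107302784, plus strand), is the gene with the paired cores shown above. It had 21.2, 21.8, 18.4 and 18.6 CPM in βNrf2KO pools 1, 2, 3 and 4, against 32.9, 25.7 and 26.9 CPM in Nrf2lox/lox pools 1, 2 and 4. Every βNrf2KO pool was below every Nrf2lox/lox pool, as for 3.80% of all tested genes in this direction. The log2 fold change was -0.51 ± 0.17 (SE), a βNrf2KO level 0.701 times that of Nrf2lox/lox, with adjusted p = 0.571 and unadjusted p = 0.0104 by edgeR. The difference in log2 CPM was -0.63, -0.24 and -0.53 for numbers 1, 2 and 4. Without Nrf2lox/lox pool 1 the fold change was -0.40 and the unadjusted p was 0.0511 by edgeR. The Schwann cell and neuron markers, in the same direction, and total counts with mitochondrial genes also separated the genotypes. Their part in the Cish value was not tested. The library sizes behind CPM overlapped between genotypes. On them 3 counts equalled 0.110 to 0.160 CPM in βNrf2KO pools and 0.0995 to 0.198 CPM in Nrf2lox/lox pools. Of the exon bases of Cish, 11.5% lie under the predicted genes Gm17040 and Gm17041 on the opposite strand, which held 0 to 5 and 0 counts per pool against 390 to 811 for Cish.

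Socs2, whose product targets the growth hormone receptor for degradation (ENSMUSG00000020027, chromosome 10, 95385362 to 95417180, minus strand), had 51.7, 57.2, 42.7 and 45.9 CPM in βNrf2KO pools 1, 2, 3 and 4, against 67.6, 74.5 and 55.6 CPM in Nrf2lox/lox pools 1, 2 and 4. The groups overlapped by 1 pair of pools, βNrf2KO pool 2 and Nrf2lox/lox pool 4. The log2 fold change was -0.42 ± 0.17 (SE), a βNrf2KO level 0.750 times that of Nrf2lox/lox, with adjusted p = 0.571 and unadjusted p = 0.0304 by edgeR. Between pools of the same number the difference was -0.39, -0.38 and -0.27 in log2 CPM for numbers 1, 2 and 4. The unadjusted p was above 0.05 without Nrf2lox/lox pool 1 or 2 or βNrf2KO pool 3 or 4, where it was 0.0663, 0.0899, 0.0934 and 0.0797 by edgeR.

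**Figure D3:**
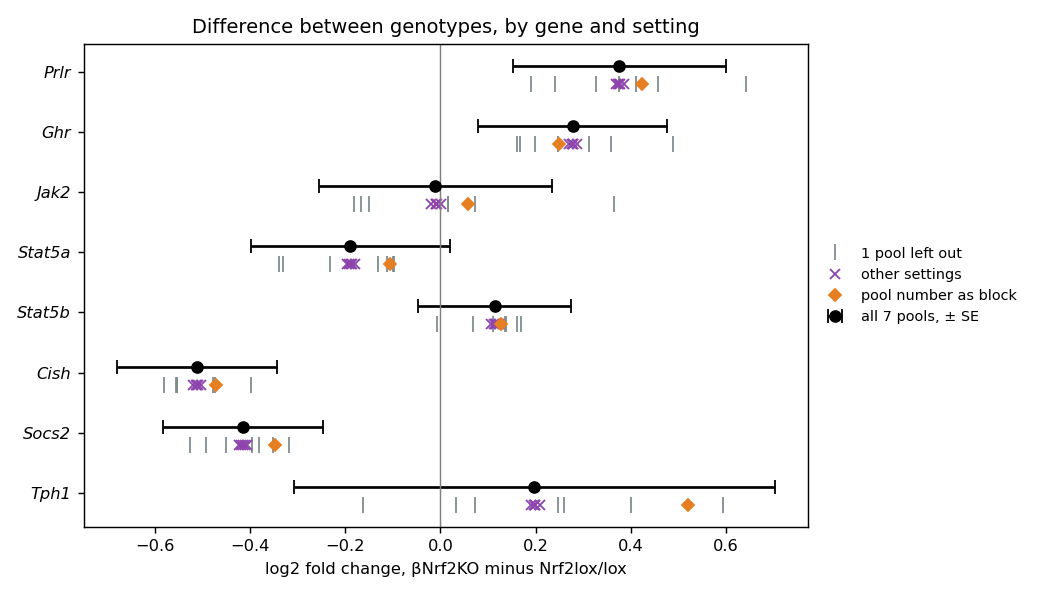
Log2 fold change (βNrf2KO minus Nrf2lox/lox) of each gene: black points with SE from all 7 pools, and under them the values with the pool number as a block (diamonds), with 1 pool left out (ticks) and under the other settings (crosses). Cish (-0.58 to -0.40) and Socs2 (-0.53 to -0.32) stayed below 0 and Prlr and Ghr above 0 in the 13 alternatives run, none of which called them.

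Tph1, the serotonin enzyme induced by lactogens in pregnant islets (ENSMUSG00000040046, chromosome 7, 46644641 to 46672537, minus strand), was read by 28, 23, 14 and 43 counts in βNrf2KO pools 1, 2, 3 and 4 and by 28, 6 and 34 counts in Nrf2lox/lox pools 1, 2 and 4. These are 1.50, 1.07, 0.655 and 1.58 CPM in βNrf2KO pools and 1.59, 0.395 and 1.13 CPM in Nrf2lox/lox pools, with full overlap. Per length it ranked at the 3.02 percentile of tested genes. Its log2 fold change was 0.20 ± 0.51 (SE, adjusted p = 0.902 by edgeR), and -0.16 without Nrf2lox/lox pool 2.

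The counts of 11 listed genes, Gh, Prl and relatives of Prl, were read to ask whether islets held their transcripts. Not all of these are ligands of Prlr or Ghr, and the proliferins Prl2c2 and Prl2c3 are not taken as such here. Of these, 8 had 0 counts in all pools: Prl2c2, Prl3b1, Prl3d1, Prl3d2, Prl3d3, Prl8a2, Prl7d1 and Prl4a1, which include the placental lactogens. A count of 0 allows up to 3 counts, or 0.110 to 0.160 CPM in βNrf2KO pools and 0.0995 to 0.198 CPM in Nrf2lox/lox pools. For genes with near-identical copies this limit need not hold, because shared reads may have been dropped in counting. Gh, the gene of the pituitary hormone, was read by 6 counts in each of βNrf2KO pools 1 and 3 and by 0 in the other βNrf2KO pools, against 0 in every Nrf2lox/lox pool, too few to enter the test. Prl, the gene of pituitary prolactin, reached 4 counts in βNrf2KO pool 3 and 1 in βNrf2KO pool 2, against 1 count in Nrf2lox/lox pool 1, and was at 0 elsewhere. Prl2c3, a proliferin with near-identical copies among which reads may be split, was read by 18 to 34 counts per βNrf2KO pool, against 20 to 29 per Nrf2lox/lox pool (log2 fold change -0.24 ± 0.43, adjusted p = 0.847 by edgeR).

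A further 7 lists placed the 8 genes among their neighbours, and none of their genes passed the threshold in either direction (edgeR, 97 genes tested counting Prl2c3). At unadjusted p under 0.05 there were 5 genes lower and 4 higher in βNrf2KO pools, 5.15% and 4.12% of the 97, against 5.23% and 3.23% of all tested genes. Pools did not overlap for 3 genes higher, 3.09%, against 3.19% of all tested genes, and for 1 lower, 1.03%, against 3.80%.

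Other cytokine receptors signalling through JAK2 or STAT5 had 9 genes with positive and 5 with negative fold changes (median 0.09). These are class I receptors except Ifngr1 and Ifngr2, the class II interferon gamma receptor, whose log2 fold changes were 0.12 and 0.24. Il3ra, the interleukin 3 receptor subunit, had a log2 fold change of -0.78 ± 0.29 and Epor, the erythropoietin receptor, of -1.13 ± 0.59 on 2 to 16 counts per pool (adjusted p = 0.571 each by edgeR). Lepr, the leptin receptor, had 0.52 ± 0.29 (adjusted p = 0.585) and Il6st, the shared subunit gp130, 0.29 ± 0.16 (adjusted p = 0.587). Among other JAKs and STATs 4 were positive and 3 negative (median 0.04). Stat2, a mediator of interferon signals, had 0.19 ± 0.21 (adjusted p = 0.750), Stat6 had -0.20 ± 0.19 (adjusted p = 0.717) and the kinase Jak3 had -0.20 ± 0.25 (adjusted p = 0.783), all by edgeR.

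Other genes listed as restraints of JAK-STAT signalling had 11 positive and 5 negative fold changes of 16 (median 0.05). The list mixes SOCS genes with PIAS genes, phosphatases and others, so its signs do not stand for the family of Cish and Socs2. Among its SOCS genes Socs1, Socs3, Socs5 (-0.008) and Socs7 (-0.19) were negative and Socs4 and Socs6 (0.18) positive. Socs4, a SOCS protein with a long amino-terminal domain, was at 6.41 ± 0.72 RPKM in βNrf2KO pools against 4.22 ± 1.50 RPKM in Nrf2lox/lox pools (SD), without overlap, and had a log2 fold change of 0.60 ± 0.24 (adjusted p = 0.571 by edgeR). The feedback inhibitors Socs1 and Socs3, induced by interferon and interleukin 6 signals, had -0.41 ± 0.30 (adjusted p = 0.651) and -0.29 ± 0.21 (adjusted p = 0.641). The ubiquitin ligase Cbl had 0.27 ± 0.17 (adjusted p = 0.611). Adaptors and coactivators had 5 positive and 7 negative (median -0.09). Gab1 and Gab2, docking proteins for SH2 domains, had -0.33 ± 0.20 and -0.26 ± 0.17 (adjusted p = 0.610 and adjusted p = 0.628), and the insulin receptor substrates Irs1 and Irs2 had 0.24 ± 0.16 and -0.50 ± 0.34 (adjusted p = 0.632 and adjusted p = 0.635).

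Of 24 tested genes listed as lactogen targets in mouse islets, 10 were positive and 14 negative (median -0.05). The list does not mark which targets lactogens raise or lower, so these signs give no direction for the pathway. Mafa, a transcription factor of mature β-cells, was at 7.72 ± 1.51 RPKM in βNrf2KO pools against 13.3 ± 2.19 RPKM in Nrf2lox/lox pools (SD), without overlap, with a log2 fold change of -0.78 ± 0.22. Cdkn1b, the cell cycle inhibitor p27, had 0.42 ± 0.17 and also separated the genotypes, on the high side. Foxm1, which drives mitotic genes, had -0.47 ± 0.19, and Neb, the giant muscle protein nebulin, had -0.47 ± 0.21 (adjusted p = 0.571 by edgeR for each of these 4). Of 15 listed STAT5 targets known from other tissues 10 were tested, 2 positive and 8 negative (median -0.28, against -0.01 over all tested genes). Of these 10, 1 (Pim1) had an unadjusted p under 0.05 by edgeR and 0 separated the genotypes. Socs3 and Bcl2l1 also belong to lists above. Pim1, a survival kinase, had -0.62 ± 0.22 and Bcl2, which blocks apoptosis, -0.54 ± 0.28 (adjusted p = 0.571 each); Id1 had -0.42 ± 0.23 (adjusted p = 0.578) and Myc -0.49 ± 0.29 (adjusted p = 0.599). Cish and Socs2 are not in this list.

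Genes around Tph1 in serotonin handling were split, 8 positive and 8 negative of 16 (median 0.02). Gch1 and Pts, which make the cofactor of tryptophan hydroxylase, had 0.52 ± 0.23 (adjusted p = 0.571) and 0.46 ± 0.26 (adjusted p = 0.585). Pts separated the genotypes without overlap. Maob, which degrades monoamines, had 0.64 ± 0.29 (adjusted p = 0.571) and Ddc, the decarboxylase that completes serotonin, 0.36 ± 0.20 (adjusted p = 0.585, all by edgeR). Tph2, the neuronal form of the enzyme, was read by 6 to 30 counts per pool and Htr2b, a serotonin receptor of islets in pregnancy, by 54 to 120.

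**Figure D4:**
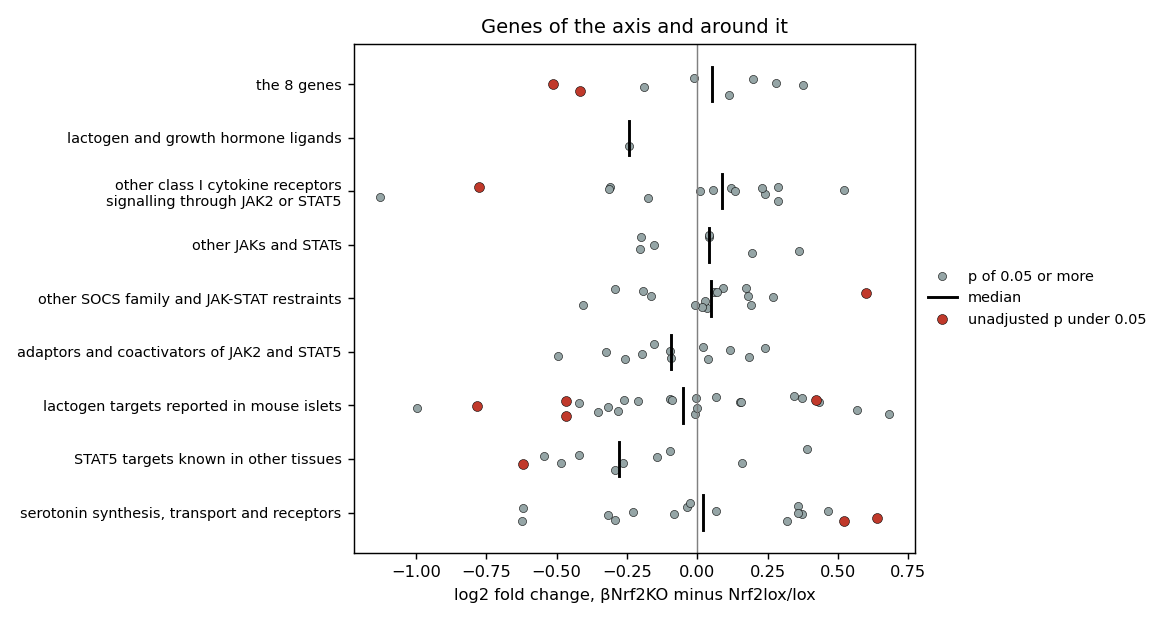
Log2 fold change (βNrf2KO minus Nrf2lox/lox) of the 8 genes and of the tested genes of each list, 1 point per gene, with the list median as a line and genes at unadjusted p under 0.05 in red. The list medians run from -0.28 (STAT5 targets known in other tissues) to 0.09 (other cytokine receptors), and 0 points passed the threshold after adjustment. The row labelled class I receptors also holds Ifngr1 and Ifngr2, which are class II.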

How the data were processed

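RNA of islets was sequenced as ribosome-depleted total RNA in 7 pools. The values the authors deposited are raw counts per gene, 1 file per pool. Per the submitters' processing notes demultiplexing used bcl2fastq 2.20, trimming Trimmomatic 0.36, alignment STAR 2.5.2b and counting Subread 1.5.2 (featureCounts); strand setting, multi-mapping rule and annotation release are not given in the sources used here. Those notes name a newer mouse build, but 91.4% of 48970 gene IDs have the start and end of GENCODE M21, so coordinates are GRCm38. The row for Cre, not a mouse gene, did not enter the library sizes, and a combined table with equal counts was not used.

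All genes were fitted with edgeR 4.0.16 in R 4.3.3 (TMM, filterByExpr, robust quasi-likelihood, two-sided, Benjamini-Hochberg). CPM and RPKM use TMM library sizes, and log2 CPM a prior count of 2. SE comes from the fold change and F statistic. DESeq2 1.42.0 was an alternative. The limit given for a count of 0 covers counting error only, while SE and SD describe the spread between pools. Pool numbers were checked for pairing: deviations from the group means correlated across genes at r = 0.376, 0.229 and 0.323 for numbers 1, 2 and 4. Pools of different numbers gave -0.353 to 0.241, the highest for βNrf2KO pool 3 with Nrf2lox/lox pool 4, above that of number 2. The block is treated as a pairing because every same-number r exceeded 0.1, not from the labels. The different-number r of 0.241 passed this limit too, so these values cannot settle whether the pools are paired.

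The 8 genes and all lists were chosen with earlier results of these data known. Up to 4 tested genes per list with the smallest p are named, except that some are not reported here; Tph2 and Htr2b were added after their values were seen. Motifs and their shares were counted in RefSeq promoter windows.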

Additional observations from a re-analysis of the deposited data

Results flagged for a closer look

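A check of 49 sets of 4 βNrf2KO values for 1 pool far from the others found 4, where chance alone gives about 5%; groups of 3 were not checked. The gap to the nearest other pool, as a share of the whole range, is given for each. For Foxm1 it was 0.904, with 4.91 log2 CPM in βNrf2KO pool 3 against 4.53 to 4.57 in the other βNrf2KO pools. For Myc it was 0.896, with 4.35 log2 CPM in βNrf2KO pool 4 against 5.03 to 5.11. For Pts it was 0.847, with 3.64 log2 CPM in βNrf2KO pool 4 against 3.37 to 3.42. For the Schwann cell and neuron marker sum it was 0.888, with 48.3 CPM in βNrf2KO pool 3 against 35.2 to 36.6 CPM. None of the 8 genes of the axis had such a pool.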

How the results depend on the processing

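Of the 8 genes 0 were called in any of the 13 alternative fits or at an adjusted p of 0.1. Among all tested genes, 14 were called with the replicate block, 1 by DESeq2, 0 to 1 when each pool was left out and 0 under the other alternatives, including library sizes without mitochondrial genes. The number of the 8 genes at unadjusted p under 0.05 was 2 with all pools, 0 without Nrf2lox/lox pool 1, 1 without Nrf2lox/lox pool 2 or βNrf2KO pool 3 or 4, and 4 without Nrf2lox/lox pool 4. Over all tested genes that number was 474 without Nrf2lox/lox pool 2, 780 and 820 without βNrf2KO pools 3 and 4, 2893 without Nrf2lox/lox pool 1 and 3446 without Nrf2lox/lox pool 4, against 1683 with all pools. The sign turned for 3 genes; the cause was not tested. Jak2 was 0.059 with the replicate block, 0.0017 by DESeq2 and -0.18 to 0.36 when each pool was left out. When each pool was left out Stat5b ran from -0.0064 to 0.17 and Tph1 from -0.16 to 0.59. The block changed no other call. Library sizes without mitochondrial genes raised RPKM 1.40 times for all 8 genes alike. Gh and Prl had too few counts to enter the test, and Tph1 rests on 6 to 43 counts per pool.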

Other observations

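Ratios between members per exon length were described pool by pool. Stat5a stood at 0.294, 0.346, 0.237 and 0.245 times Stat5b in βNrf2KO pools 1, 2, 3 and 4, against 0.390, 0.350 and 0.295 times in Nrf2lox/lox pools 1, 2 and 4. Cish stood at 0.565 to 0.639 times Socs2 in βNrf2KO pools, against 0.512 to 0.723 times in Nrf2lox/lox pools. Prlr stood at 0.409 to 0.682 times Ghr in βNrf2KO pools, against 0.404 to 0.488 times in Nrf2lox/lox pools. None of these ratios was tested.

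Prlr and Tph1 were the members whose spread over the 7 pools was at least that of the median gene. The genes closest to Prlr in centred log2 CPM were Urod, an enzyme of heme synthesis (root mean square difference 0.0884 over 7 pools), Suv39h2, a histone methyltransferase (0.106), and Rnf139, a ubiquitin ligase (0.117). Those closest to Tph1 were Vcam1, an adhesion molecule (0.181), Grip1os2, a noncoding transcript (0.202), and Naa10, an acetyltransferase (0.274). Tph1 rests on 6 to 43 counts per pool, so counting error enters its spread and its likeness. Some genes are always nearest, and these likenesses were not tested.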
